A study of Homo sapiens with 40 samples.

Results

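The collagen genes were followed in U87 cells, an established human glioblastoma line, that had been made to express different forms of IRE1. A gene was a member if it stood on a list of 34 collagen genes, from COL1A1 to COL27A1, without COL6A1, and every probe set (a group of probes on the array that is read out as 1 value) naming a listed gene was kept. Of the 34 genes, 33 had at least 1 probe set that named no other gene, 86 probe sets in all, and COL17A1 had none. On the array, 19774 genes were named in this way. IRE1, encoded by ERN1, is a sensor of unfolded protein in the endoplasmic reticulum that acts as a kinase and an RNase. The 7 lines carried the empty lentiviral vector pCDH-CMV-MCS-EF1-Puro-copGFP (EV), wild-type IRE1 (WT), IRE1 with S769F, Q780*, P336L or A414T (the asterisk stands for a stop codon), or a dominant-negative form (IRE1-DN). In the WT and variant lines the constructs were driven by the CMV promoter, and these cells and EV were selected with puromycin. No removal of the endogenous ERN1 gene is described, so that each form was added to what the cells already made. The labels give the variant lines clone numbers whereas the methods describe polyclonal populations, so whether each line came from 1 clone is not settled by the sources used here, and the methods do not give the vector of the dominant-negative form. Each line was measured under basal conditions and after 0.5 µg/ml tunicamycin, an inhibitor of N-linked glycosylation, for 16 h. There were 3 arrays for each of these 14 groups, except for IRE1-DN, which had 2, making 40 arrays.

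Collagens are secreted or membrane proteins whose chains wind around each other into a triple helix. The chains are folded, hydroxylated and cross-checked in the endoplasmic reticulum before export, which makes them a heavy load for that compartment. Fibrillar collagens, such as types I and V, form banded fibres, type IV forms the net of basement membranes, types VIII and X form short-chain nets, and type VI forms beaded filaments. The FACIT collagens, such as types XII and XVI, sit on fibres, type XIII spans the plasma membrane, and types XV and XVIII, the multiplexins, lie at basement membranes. In brain, fibrillar collagen is sparse outside vessels and meninges, and glioma cells of mesenchymal character can make it.

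The values were log2 signals after RMA, and a difference of 1 is therefore a doubling of the signal. A gene was represented by its probe set with the highest mean over the arrays, and a gene entered the tests if this signal reached the 40th percentile of an array, a floor of 4.23 to 4.31, on at least 2 arrays. This filter left 17191 genes and 30 of the collagen genes. COL9A1, COL9A3 and COL19A1 did not reach it. The deposited values carry no detection call, and where the mean or most arrays of the dimmer group lay under the floor, its signals under the floor were set to it and the fold is given as "at least". A gene "passed" when the limma test gave an adjusted p under 0.05 after Benjamini-Hochberg correction over all 17191 genes. Upper quartiles of the arrays lay within 6.475 to 6.852, and arrays of a group correlated at no less than 0.9762. HSPA5, a stress-induced chaperone, rose on tunicamycin in all 7 lines, from 12.23 to 12.51 in the basal group means to 13.27 to 13.38. DDIT3, a stress-induced transcription factor, rose from 7.35 to 8.44 up to 10.96 to 11.27. Its basal mean was lowest in EV (7.35). Basal DDIT3 passed as higher than EV in WT (1.10), S769F (0.97), Q780* (0.97) and P336L (0.94), but not in A414T (0.38) or IRE1-DN (0.29). ERN1 itself had basal means of 6.07 to 6.42 in the WT and variant lines against 6.09 in EV, so that the constructs did not show in its probe set, and of 5.04 in IRE1-DN (log2 difference from EV -1.05, adjusted p = 0.0039). Whether this probe set can read the constructs was not tested. VIM (13.01 to 13.36) and CD44 (11.91 to 12.88), of the markers of a mesenchymal glioma line, were bright in every group, NES lay between 4.33 and 6.5, and GFAP, OLIG2 and S100B had no group mean over 4.49. Group means of the endothelial and immune markers did not exceed 5.2. The labels call the arrays of a group biological replicates, but no source states that they came from separate cultures, so that a p-value measures the spread between these arrays only.

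Promoter sequence was available for 26 of the 34 genes as windows of 300 bases, 250 before and 50 after the RefSeq start on GRCh38.p14. It is shown for COL4A1 with COL4A2, for COL4A6 and COL4A5, and for COL5A1, COL27A1 and COL13A1, the last of which differed between lines, as did COL5A1 and COL27A1. Printed are the 126 bases before a start, 5′ to 3′ on the coding strand of the gene. CCAAT and GGGCGG and their reverse complements are in capitals. COL4A1 and COL4A2, which encode the chains of the common form of type IV collagen, start back to back on chromosome 13 with 126 bases between the starts (chr13:110307158-110307283), and that stretch is printed in the direction of COL4A2. COL4A6 (chrX:108439459-108439584, minus strand) and COL4A5 (chrX:108439712-108439837, plus strand) also start back to back, with 379 bases between them. So do COL4A4 and COL4A3, with 418 bases between the starts used, and that pair is not shown. COL5A1 (chr9:134641677-134641802), COL27A1 (chr9:114155411-114155536) and COL13A1 (chr10:69801780-69801905) lie on the plus strand, and the start used for COL27A1 lies inside the gene's span rather than at its first base. COL1A1, COL1A2, COL2A1, COL3A1, COL5A2, COL8A1, COL9A3 and COL14A1 had no window.
COL4A1 to COL4A2: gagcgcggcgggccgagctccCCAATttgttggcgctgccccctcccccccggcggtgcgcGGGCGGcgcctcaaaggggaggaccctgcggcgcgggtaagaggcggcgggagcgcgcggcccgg
COL4A6: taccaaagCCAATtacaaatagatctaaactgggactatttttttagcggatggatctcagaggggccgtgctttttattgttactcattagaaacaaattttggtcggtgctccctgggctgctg
COL4A5: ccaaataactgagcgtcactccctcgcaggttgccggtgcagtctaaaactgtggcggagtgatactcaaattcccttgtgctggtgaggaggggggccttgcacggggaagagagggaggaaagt
COL5A1: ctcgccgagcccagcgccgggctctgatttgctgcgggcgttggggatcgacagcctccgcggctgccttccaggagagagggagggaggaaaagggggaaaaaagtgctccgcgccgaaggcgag
COL27A1: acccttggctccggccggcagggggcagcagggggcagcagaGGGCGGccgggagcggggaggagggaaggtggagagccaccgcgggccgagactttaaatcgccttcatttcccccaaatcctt
COL13A1: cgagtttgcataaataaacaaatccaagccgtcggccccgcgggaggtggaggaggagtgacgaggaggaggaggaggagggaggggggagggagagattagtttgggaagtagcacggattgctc

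The stretch shared by COL4A1 and COL4A2 was 80.2% G and C and held 1 CCAAT and 1 GGGCGG, whereas the 126 bases before COL4A6 were 42.1% G and C. As 7 of the 26 genes had more than 1 window, a gene was counted if any of its windows held the motif. CCAAT occurred in the 126 bases before a start of 8 of the 26 collagen genes, against 25.1% of the 27305 genes with a window, and GGGCGG in 15 of the 26, against 38.6%. Both counts include COL4A1 and COL4A2, which share 1 stretch and hence the same sites. Motifs bound by factors of the unfolded protein response were also searched for on both strands of the 300-base windows. No window of the 26 genes held CCAAT and CCACG 9 bases apart (0.0916% of all genes), TGACGTGG (0.927%) or TGATGNAAT (1.22%). Motifs this rare would seldom occur among 26 genes, so that their absence cannot tell these promoters from others. The first of these motifs contains the CCAAT of the shorter search, and the letters of the second end in the reverse complement of the part that closes the first. The pair of shorter motifs was chosen for search after the values were seen.

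Across the 14 groups, 11 of the 33 measured collagen genes stayed under a group mean of 5 throughout. These were COL2A1, COL3A1, COL4A3, COL4A4, COL5A3, COL8A2, COL9A1, COL9A3, COL10A1, COL14A1 and COL19A1. Among them are the cartilage collagen COL2A1 and COL3A1, a fibrillar collagen of soft tissue and vessels. A further 9 genes had a group mean over 9 in at least 1 group, namely COL1A1, COL1A2, COL5A1, COL5A2, COL6A3, COL8A1, COL12A1, COL13A1 and COL27A1. COL6A3, a chain of the beaded filaments, was the steadiest of these 9, with group means from 11.60 to 12.30. Its only probe set had a mean signal of 12.03, and whether so bright a set understates differences was not tested. Of the 30 tested genes, 15 passed in at least 1 line against EV under basal conditions (background 37.2% of all genes), 21 in at least 1 line against EV under tunicamycin (41.8%), and 21 in at least 1 line on tunicamycin (57.5%). COL2A1, COL4A3, COL4A4, COL5A3, COL8A2, COL9A2 and COL10A1 passed in none of the 27 comparisons, as did 31.6% of all genes.

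**Figure D1:**
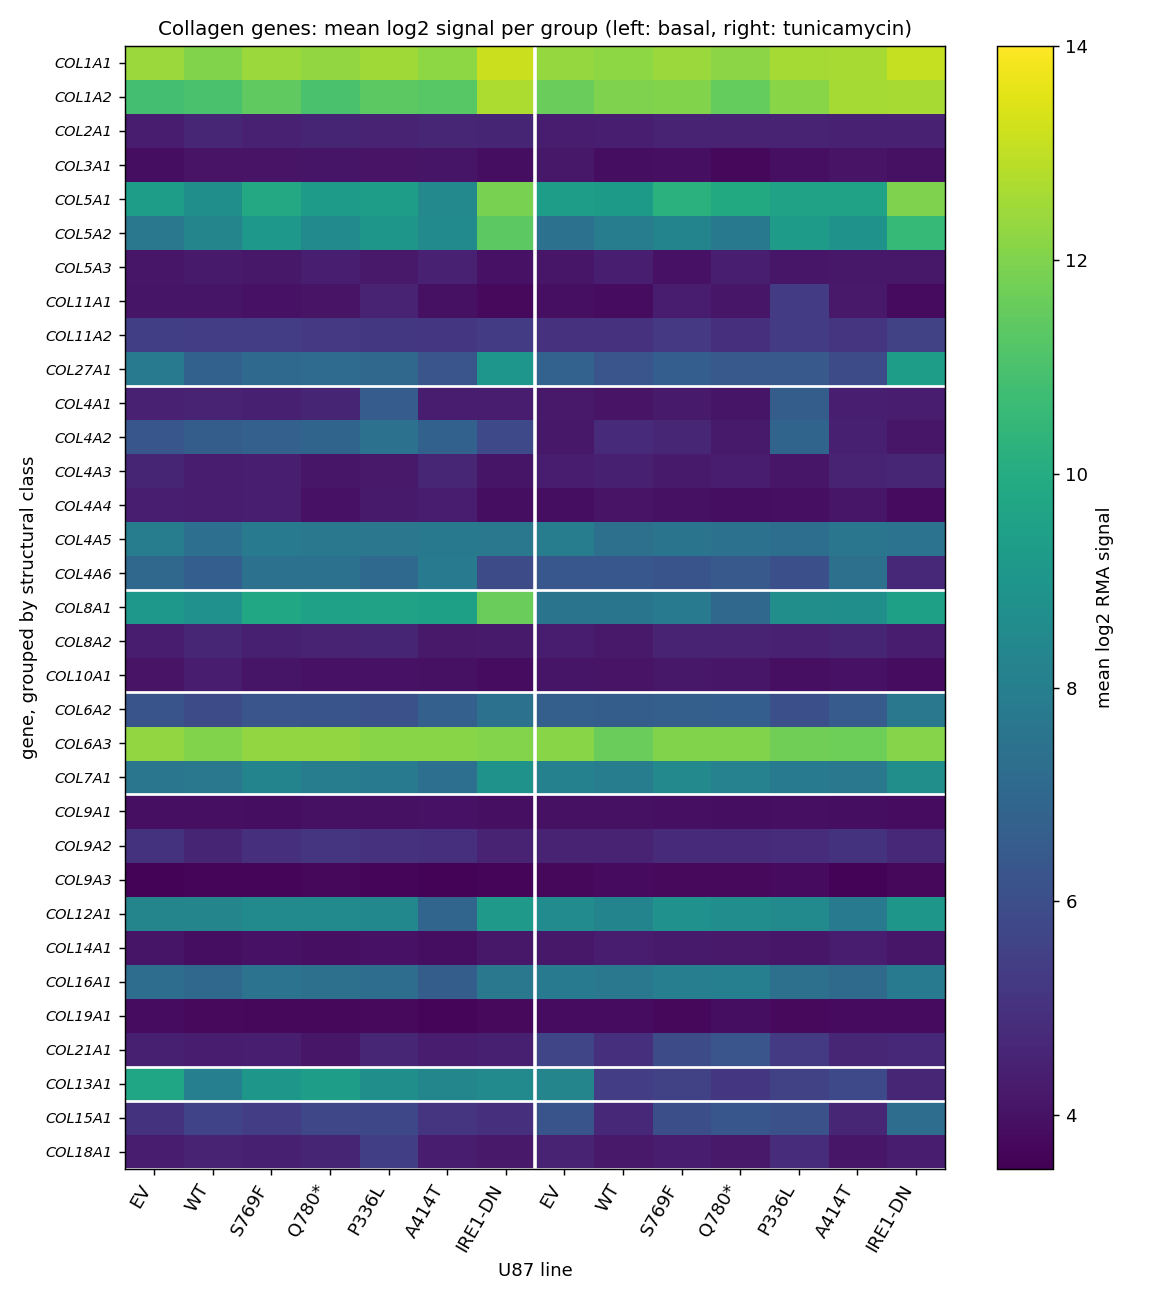
Mean log2 signal of the 33 collagen genes with a probe set (rows, grouped by structural class and separated by white lines) in each of the 7 lines under basal conditions (left) and tunicamycin (right). The colour of a row can be read between groups and not against other rows, since probe sets differ in how bright they are; the basal IRE1-DN column stands out for COL1A2, COL5A1, COL5A2, COL8A1 and COL27A1, and both P336L columns for COL4A1.

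In the dominant-negative line 5 of the 10 fibrillar collagen genes were higher than in EV under basal conditions, while COL4A2 and COL4A6, 2 of the 6 type IV genes, and the membrane collagen COL13A1 were lower. Of the collagen genes, 9 of the 30 genes were higher (background 15.2% of all genes) and 3 were lower (12.4%). The 3 lower genes of 30 make a share near the background. The higher fibrillar genes were COL1A1, COL1A2, COL5A1, COL5A2 and COL27A1, and 0 were lower by limma. The class's median log2 difference was 0.48, beside -0.03 over all genes tested and -0.08 over the 30 collagen genes. COL6A2, of the beaded filaments, COL7A1, of the anchoring fibrils, COL8A1 and COL12A1 were also higher. Of the other type IV genes, COL4A1 (-0.19), COL4A3 (-0.46), COL4A4 (-0.48) and COL4A5 (-0.21) did not pass.

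COL5A2, a chain of the type V collagen that limits fibre width (chr2:189031898-189441111), had signals of 7.89, 7.62 and 7.57 on the EV arrays and of 11.55 and 11.13 on the IRE1-DN arrays. The groups did not overlap, and the log2 difference of 3.65 ± 0.17 (SE) was a 12.5-fold rise (adjusted p = 9.89e-17). COL5A1, its partner chain (chr9:134641803-134844843), went from 9.13, 9.36 and 9.66 to 11.93 and 11.86. This was a 5.71-fold rise (log2 difference 2.51 ± 0.20, adjusted p = 2.04e-11). COL8A1, a short-chain collagen of vessel walls and of Descemet's membrane (chr3:99638594-99799217), gave 8.97, 9.12 and 9.25 in EV and 11.86 and 11.38 in IRE1-DN, a 5.68-fold rise (adjusted p = 1.49e-11). COL1A2, a chain of type I collagen (chr7:94394895-94431227), gave 10.71, 11 and 10.85 in EV and 12.74 and 12.70 in IRE1-DN, a 3.65-fold rise (adjusted p = 4.28e-15). The other probe sets of these 4 genes rose as well, by 4.10 for COL5A2, by 2.69 and 3.75 for COL5A1, by 3.20 for COL8A1 and by 3.77 and 2.47 for COL1A2 on the log2 scale. Smaller rises that passed were those of COL7A1 (1.27 ± 0.18), COL6A2 (1.24 ± 0.28), COL27A1 (1.12 ± 0.25), COL12A1 (0.85 ± 0.16) and COL1A1 (0.71 ± 0.09). COL13A1 (-1.23 ± 0.43), COL4A6 (-1.12 ± 0.18) and COL4A2 (-0.50 ± 0.19) were lower. COL6A3, by contrast with COL6A2, gave -0.25 on its only probe set, a bright one, and did not pass. A dim COL27A1 probe set gave -0.39 and a dim COL12A1 set -0.30, against rises of the 2 further tested sets of each gene. When 1 array was left out, 10 or 11 genes passed in place of 12.

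**Figure D2:**
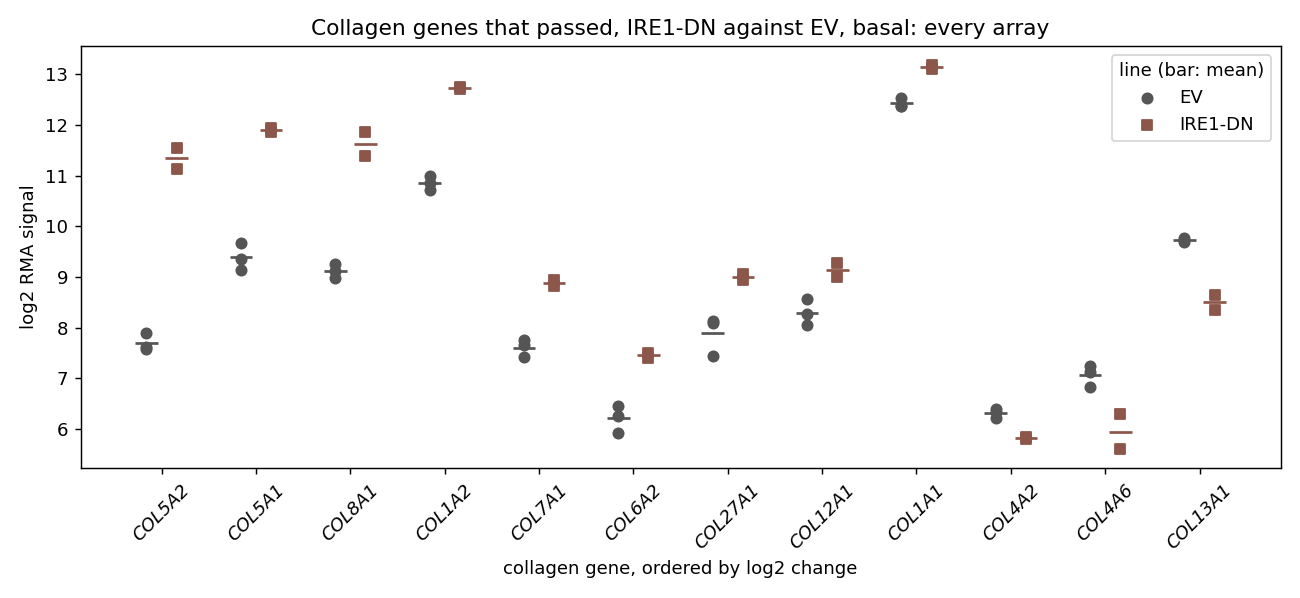
Log2 signal on every basal array of EV (circles, 3 arrays) and IRE1-DN (squares, 2 arrays) for the 12 collagen genes that passed in this comparison, with short bars at the group means. These 12 genes were picked because they passed here, so the separation of their arrays is no further evidence. The widest gap is that of COL5A2, between 7.89 and 11.13.

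COL1A1 was read by 5 probe sets that disagreed in size. The probe set that stood for the gene had a mean signal of 12.43, close to the top of the scale, and gave 12.38, 12.37 and 12.54 in EV and 13.18 and 13.10 in IRE1-DN, a 1.63-fold rise. The next brightest gave 9.56, 9.15 and 9.50 in EV and 12.04 and 11.77 in IRE1-DN. Probe set 4 gave 4.70, 5.05 and 5.09 against 8.88 and 8.71. These 2 sets thus rose by 2.50 and 3.85 on the log2 scale, where the first rose by 0.71. The remaining 2 did not pass, at -0.07 and -0.20, and the dimmer of them did not exceed 4.38 on any array. COL1A1 was therefore higher in IRE1-DN by 3 of its probe sets, whose sizes ranged from 0.71 to 3.85.

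**Figure D3:**
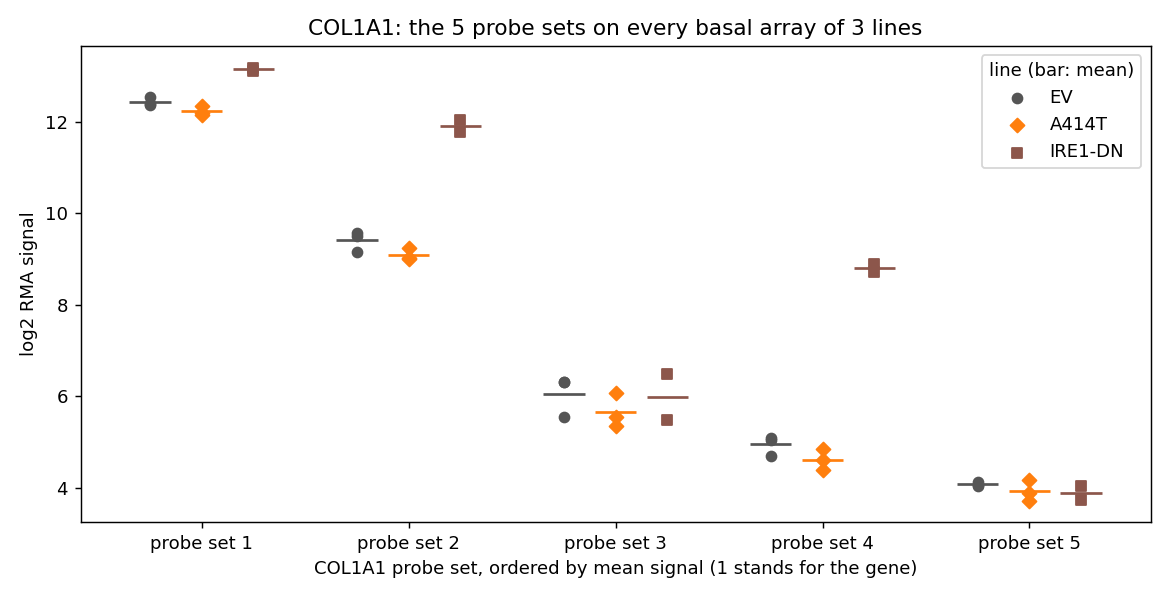
Log2 signal of the 5 COL1A1 probe sets (horizontal axis, from the brightest to the dimmest mean signal) on every basal array of EV (circles), A414T (diamonds) and IRE1-DN (squares), with bars at the means. Sets 2 and 4 separate IRE1-DN from the other lines by more than 2 log2 units, set 1 by less than 1, and sets 3 and 5 do not separate it.

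Enzymes and chaperones of collagen followed in the same line. Of 33 genes for collagen maturation, 31 were tested, and 11 were higher (background 15.2%) and 1 lower (12.4%) in IRE1-DN than in EV under basal conditions, with a median log2 difference of 0.29. SERPINH1, the collagen chaperone HSP47, lay at 7.71 to 7.99 in EV and 9.88 to 10.22 in IRE1-DN (log2 difference 2.20). PCOLCE2, an enhancer of the procollagen C-proteinase, rose by 2.28, BMP1, that proteinase, by 1.80, and LOX, the cross-linking oxidase, by 1.30, while PCOLCE fell by 1.14. Of 9 collagen receptors, 8 were tested, with 1 higher and 3 lower beside the same background. ITGA2, the alpha chain of a collagen-binding integrin, dropped from 10.83 to 10.90 in EV to 5.97 to 6.60 in IRE1-DN, a log2 difference of -4.58. ITGA11, another such chain, fell by 2.21, ITGA10 by 0.59, and DDR1, a receptor tyrosine kinase for collagen, rose by 0.91. Among 6 fibroblast and pericyte markers, 1 was higher (LUM, at 10.83 to 11.16 against 5.34 to 6.28 in EV) and 1 was lower, and the log2 of their summed signal was 11.22 to 11.58 against 9.35 to 9.41. DCN lay at a mean of 4.91 against 5.38 in EV and did not pass, and the part of these markers in the collagen differences was not tested.

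In A414T, COL27A1, COL12A1 and COL5A1, all 3 of which were higher than EV in IRE1-DN, were lower than EV, both comparisons using the same EV arrays. Other genes that passed in A414T moved the same way in both lines, COL5A2 and COL1A2 being higher and COL13A1 lower. COL4A6 was higher in A414T and lower in IRE1-DN. Under basal conditions 3 collagen genes were higher (background 10.4%) and 4 lower (8.19%), with a median log2 difference of -0.09 over the 30 genes beside -0.00 over all genes. COL27A1, a fibrillar collagen of cartilage (chr9:114154098-114312511), gave 7.43, 8.09 and 8.13 in EV and 5.69, 6.32 and 6.74 in A414T, and was 3.10-fold lower (log2 difference -1.63 ± 0.22, adjusted p = 9.31e-07). COL12A1, a FACIT collagen, gave 8.27, 8.05 and 8.56 against 6.74, 7.03 and 6.95, and was 2.61-fold lower (adjusted p = 5.51e-09). The 3 other COL12A1 probe sets that could be tested, all dimmer, gave 0.12, -0.26 and -0.36 and did not pass, so that the difference rests on 1 probe set. Of the 3 other COL27A1 probe sets 1 passed, at -1.22, and the other two gave -0.25 and -0.13. COL13A1 went from 9.77, 9.69 and 9.72 to 8.39, 8.27 and 8.27 and was 2.67-fold lower (adjusted p = 0.00673). COL5A1 went from 9.13, 9.36 and 9.66 to 8.06, 8.53 and 8.72 and was 1.93-fold lower (adjusted p = 0.000185). The higher genes were COL4A6 (0.81 ± 0.16), COL5A2 (0.80 ± 0.15) and COL1A2 (0.42 ± 0.09), although 1 of the other COL1A2 probe sets gave -0.06. Of the 6 fibroblast and pericyte markers 3 were lower in A414T than in EV and 0 higher by limma, and the log2 of their summed signal was 8 to 8.25 against 9.35 to 9.41. The part of these markers in the collagen differences was not tested.

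Set against WT, A414T had 4 collagen genes higher (background 8.32%) and 1 lower (7.05%). COL12A1 was 2.55-fold lower (adjusted p = 1.7e-08), whereas COL4A6 was 2.36-fold higher (adjusted p = 1.46e-06), followed by COL6A2 (0.80 ± 0.25), COL8A1 (0.65 ± 0.18) and COL1A2 (0.29 ± 0.09). The other COL1A2 probe sets gave 0.50, which passed, and -0.33, which did not. Against IRE1-DN, A414T had 2 genes higher (11.6%) and 9 lower (12%). The 5 fibrillar genes that were high in IRE1-DN were all among the lower ones, with COL5A1 11-fold lower (log2 difference -3.46 ± 0.20), COL5A2 7.21-fold and COL27A1 6.73-fold, although 2 of the COL1A1 sets (-0.32 and 0.05) and 1 of the COL27A1 sets (0.14) did not pass. COL4A6 was 3.82-fold and COL4A2 1.91-fold higher in A414T. The maturation list moved with them, with 17 of its 31 tested genes lower and 0 higher by limma in this comparison, and a median log2 difference of -0.51 beside 0.03 over all genes. Against EV, 2 maturation genes were higher (background 10.4%) and 10 lower (8.19%) in A414T, among them P3H2, a prolyl hydroxylase of collagen, which fell by 1.96 on the log2 scale. The receptors DDR1 (-0.99), MRC2 (-1.07), which takes up collagen, and ITGA11 (-1.28) were lower as well, and DDR2 was higher (0.30).

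In P336L the genes for both chains of common type IV collagen were higher than in EV. Against EV, 5 collagen genes were higher (background 6.53%) and 1 lower (2.58%) under basal conditions, with a median log2 difference of 0.07 over the 30 genes beside 0.02 over all genes. COL4A1 gave 4.44, 4.53 and 4.44 in EV and 6.36, 6.45 and 6.80 in P336L, a 4.19-fold rise (log2 difference 2.07 ± 0.21, adjusted p = 1.1e-08). No array of another line, basal or treated, exceeded 5.08. COL4A2, the neighbour with which it shares the promoter shown above, went from 6.21, 6.40 and 6.34 to 7.44, 7.26 and 7.56, a 2.15-fold rise (adjusted p = 1.75e-05). COL18A1, a multiplexin whose tail is released as endostatin, gave 4.22, 4.28 and 4.58 in EV and 4.96, 5.84 and 5.53 in P336L, a rise of at least 2.07-fold (adjusted p = 5.92e-05). COL5A2 was 2.59-fold higher (8.74, 9.10 and 9.34, adjusted p = 1.2e-07) and COL1A2 1.42-fold higher. COL27A1 was 1.80-fold lower, at 6.99, 7.12 and 6.99 (adjusted p = 0.00954). The second probe set of COL4A1 gave 0.53 and that of COL4A2 gave 0.02, and neither passed. Both are dim, with highest arrays of 4.84 and 4.94. The remaining type IV genes gave -0.37 (COL4A3), -0.12 (COL4A4), -0.25 (COL4A5) and 0.03 (COL4A6).

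Under tunicamycin both genes were again higher in P336L than in EV, by 2.71 for COL4A2 against 1.10 under basal conditions and by 2.41 for COL4A1 against 2.07 on the log2 scale. The change between conditions passed for COL4A2 and not for COL4A1 (0.34 ± 0.29, adjusted p = 0.778). Against EV under the same treatment, P336L had 7 collagen genes higher (background 5.89%) and 3 lower (6.32%). COL4A2 gave 6.81, 6.81 and 7.04 in P336L and 4.44, 4.09 and 4.01 in EV, a difference of at least 5.92-fold (log2 2.71 ± 0.17, adjusted p = 3.24e-13). COL4A1 gave 6.82, 6.61 and 6.42 against 4.16, 4.35 and 4.10, a difference of at least 5.01-fold (adjusted p = 4.37e-10). COL5A2 was 3.62-fold higher, at 9.32, 9.18 and 9.27 against 7.33, 7.39 and 7.48. COL11A1, a minor fibrillar chain, was at least 2.11-fold higher at 4.76, 5.43 and 5.83 against 4.04, 3.88 and 3.93 (adjusted p = 5.83e-07). COL8A1 (1.16 ± 0.18), COL1A2 (0.51 ± 0.09) and COL1A1 (0.26 ± 0.08, with another set at -0.29) were also higher, and COL13A1, COL4A5 (-0.58 ± 0.17) and COL6A3 (-0.45 ± 0.10) lower. Of the 5 epithelial markers 4 were tested, and KRT18 was the 1 that passed in P336L, at 8.54 to 9.46 under basal conditions against 3.82 to 3.91 in EV. The log2 of the summed marker signal was 8.86 to 9.67 against 6.61 to 7.13, while CDH1 stayed at 3.53 to 3.87 and KRT19 at 4.17 to 4.39. The part of this difference in the type IV result was not tested.

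**Figure D4:**
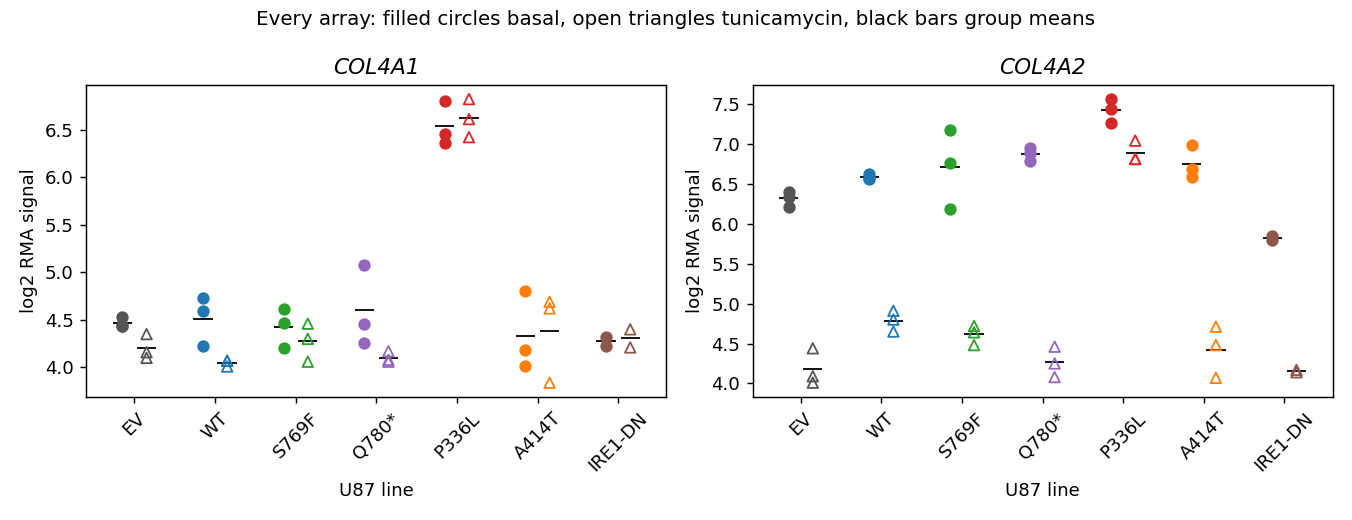
Log2 signal of COL4A1 (left) and COL4A2 (right) on every array of the 7 lines, with filled circles for basal and open triangles for tunicamycin arrays and black bars for the group means. COL4A1 lies at 6.36 or higher on all 6 P336L arrays and at 5.08 or lower elsewhere, and COL4A2 falls on tunicamycin to 4.91 or lower in every line but P336L.

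In WT and S769F, COL27A1 was lower than in EV. COL5A2 was higher in WT, S769F and Q780* in the fit of all arrays, with or without a block for the replicate number. WT had 1 collagen gene higher (background 4.9%) and 5 lower (3.68%) than EV under basal conditions. COL13A1 was 3.24-fold lower at 7.93, 8.16 and 8 (log2 difference -1.70 ± 0.38, adjusted p = 0.00284) and COL27A1 2.18-fold lower at 6.34, 6.66 and 7.28 (adjusted p = 0.000578), with 1 other COL27A1 set lower (-0.78) and those at 0.04 and -0.06 not passing. COL5A1 (8.49, 8.61 and 9.06) was 1.58-fold and COL4A5 (7.22, 7.30 and 7.51 against 7.88, 7.88 and 8.04) 1.5-fold lower. COL1A1 was lower by 0.42 ± 0.08, and the adjusted p was 0.000707. COL5A2 was the higher gene, at 8.28, 8.20 and 8.33. When arrays of the same replicate number were paired in the fit of these 6 arrays, COL1A1 and COL5A2 missed the threshold (adjusted p = 0.0695 and 0.0503). Both passed with the replicate block over all arrays. Without EV basal replicate 3 the count fell from 6 to 3.

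S769F had 4 genes higher (background 4.23%) and 1 lower (1.93%). COL5A2 was 2.67-fold higher at 8.97, 8.94 and 9.41 (adjusted p = 1.32e-07). COL8A1 (9.64, 9.79 and 9.94) was 1.60-fold higher, COL7A1 (8.10, 8.36 and 8.30 against 7.65, 7.41 and 7.75) 1.56-fold, and COL1A2 1.48-fold. COL27A1 was the lower gene, 1.75-fold, at 6.87, 7.33 and 7.02. With the replicate block on only the arrays compared, 3 of these 5 genes passed, COL1A2 and COL7A1 having adjusted p of 0.0682 and 0.0719. With the block over all arrays all 5 passed. Without EV basal replicate 2 or without S769F basal replicate 3, 3 genes passed. Q780* had 2 genes higher (3.36%) and by limma 0 lower (1.83%; 1 at an unadjusted p under 0.05). COL5A2 was 1.80-fold higher at 8.31, 8.46 and 8.85 (adjusted p = 0.000413) and COL4A2 1.47-fold higher at 6.79, 6.88 and 6.95 (adjusted p = 0.044). In the fit of only the arrays compared neither passed, with the replicate block (adjusted p = 0.1 and 0.0777) or without it. Both passed with the block over all arrays. When EV basal replicate 2 or 3 or any of the 3 Q780* arrays was left out, 1 of them passed. In the fit of all arrays COL5A2 thus passed as higher in each of the 6 lines, by 0.58 to 3.65, and it passed again with the replicate block. These comparisons share the 3 EV arrays. With the block on only the arrays compared it missed the threshold in WT and in Q780* (limma adjusted p = 0.0503 and 0.1), comparisons taken as paired.

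COL13A1 was lower than in EV in all 6 other lines under tunicamycin. The gene (chr10:69801906-69959144) encodes a membrane collagen of cell-matrix junctions. On the EV arrays under tunicamycin its signals were 8.52, 8.05 and 8.31. They were 6.39, 5.35 and 4.51 in WT, 6.18, 5.49 and 4.92 in S769F, and 5.24, 5.13 and 5.07 in Q780*. P336L gave 5.98, 5.68 and 5.01, A414T 7.20, 4.93 and 5.36, and IRE1-DN 4.70 and 4.56. No array of another line reached the EV range, and A414T replicate 1 lay well above the rest of its group. The log2 differences from EV ran from -2.46 ± 0.38 in A414T (adjusted p = 8.54e-06) to -3.66 ± 0.43 in IRE1-DN (adjusted p = 4.9e-08), all against the same 3 EV arrays. A second COL13A1 probe set passed as lower in all 6 lines too (-1.19 to -1.79), while the remaining set passed in IRE1-DN only (-0.75).

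Under tunicamycin WT had 3 collagen genes higher (background 5.65%) and 5 lower (6.5%) than EV. Besides COL13A1, COL15A1, a multiplexin (chr9:98943907-99070787), was 2.85-fold lower at 4.96, 4.72 and 4.48 against 6.63, 5.80 and 6.27 (adjusted p = 0.000314). COL21A1, a FACIT-related collagen, was 1.72-fold lower at 4.64, 5.05 and 5.06 against 5.48, 6.00 and 5.61. COL4A2 was at least 1.38-fold higher at 4.80, 4.91 and 4.65. COL6A3 (-0.55) and COL4A5 (-0.52) were lower, and COL5A2 (0.55) and COL1A2 (0.35) higher. With the replicate block on only the arrays compared, COL1A2 and COL4A5 missed the threshold (adjusted p = 0.0953 and 0.0683). Both passed with the block over all arrays. The count of 8 was 3 without EV tunicamycin replicate 2 and 5 without EV tunicamycin replicate 3. S769F had 3 genes higher (4.64%) and 1 lower (4.41%), with COL5A1 at 10.17, 10.03 and 10.38 against 9.43, 9.08 and 9.54 (1.79-fold), COL5A2 at 8.43, 8.12 and 8.16 (1.78-fold) and COL1A2 at 12.18, 11.86 and 12.04 against 11.60, 11.51 and 11.73 (1.33-fold). For Q780*, limma found 0 genes higher (4.92%; 3 at an unadjusted p under 0.05) and 2 lower (4.75%). Beside COL13A1, COL3A1 was lower at 3.70, 3.79 and 3.73 against 4.03, 4.26 and 4.20. No fold is given for COL3A1 since both groups' means lie under the floor. Its adjusted p was 0.0409, or 0.056 with the replicate block on only the arrays compared, and it passed with the block over all arrays. Without EV replicate 2 or 3, or without Q780* replicate 1 or 3, under tunicamycin, 1 gene passed.

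A414T under tunicamycin had 5 collagen genes higher (background 10.3%) and 7 lower (14.6%). COL15A1 was 3.06-fold lower at 4.76, 4.42 and 4.68 (adjusted p = 5.37e-05). COL5A2 was 2.77-fold higher at 9.04, 8.81 and 8.75 (adjusted p = 1.05e-08), and COL8A1 2.34-fold higher at 9.24, 8.45 and 8.55 against 7.81, 7.33 and 7.42 (adjusted p = 3.04e-06). COL4A6 (1.05), COL1A2 (0.99) and COL1A1 (0.31) were higher too, whereas COL21A1 (-1.08), COL27A1 (-0.88), COL12A1 (-0.79), COL16A1 (-0.64) and COL6A3 (-0.48) were lower. A dim COL1A1 probe set gave -0.18 in this comparison. IRE1-DN had 11 genes higher (11.5%) and 3 lower (14.5%). COL5A2 (10.60 and 10.47) was 8.77-fold, COL5A1 (11.99 and 11.97) 6.18-fold, COL27A1 (9.12 and 9.56 against 6.81, 6.84 and 6.79) 5.77-fold and COL8A1 (9.44 and 9.51) 3.89-fold higher. The fibrillar class had 6 of 10 members higher and 0 lower by limma, with a median log2 difference of 0.66 beside -0.02 over all genes. COL15A1 (1.01) and COL11A2 (0.58) joined the higher genes, the second COL11A2 set giving -0.13, and COL13A1 (-3.66), COL4A6 (-1.66) and COL21A1 (-0.98) were lower. The COL15A1 arrays overlapped, at 7.93 and 6.55 against 6.63, 5.80 and 6.27 in EV. With the replicate block on only the arrays compared, COL15A1 missed the threshold (limma adjusted p = 0.116). Of the maturation list, 5 were higher and 3 lower in IRE1-DN, of 31 tested.

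On tunicamycin COL13A1, COL4A2 and COL8A1 fell in all 7 lines. The share of all genes that fell in all 7 lines was not counted. In EV, 4 collagen genes rose (background 18.2%) and 6 fell (12.7%), with a median log2 change of -0.04 over the 30 genes beside 0.00 over all genes. COL4A2 fell from 6.21, 6.40 and 6.34 to 4.44, 4.09 and 4.01, at least 3.99-fold (adjusted p = 2.94e-11). COL8A1 fell 3.03-fold, from 8.97, 9.12 and 9.25 to 7.81, 7.33 and 7.42, and COL13A1 2.70-fold, from 9.77, 9.69 and 9.72 to 8.52, 8.05 and 8.31. COL21A1 rose 2.44-fold, from 4.06, 4.85 and 4.33 to 5.48, 6.00 and 5.61 (adjusted p = 9.12e-05). COL15A1 (1.19 ± 0.28), COL1A2 (0.76 ± 0.09) and COL7A1 (0.49 ± 0.16) rose, and COL27A1 (-1.07 ± 0.22), COL4A6 (-0.72 ± 0.16) and COL11A2 (-0.44 ± 0.17, with the second set at 0.15) fell.

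In WT, 6 genes rose (15.8%) and 5 fell (13.5%), and without WT tunicamycin replicate 3 the count of 11 was 7. Among those that rose was COL14A1, at least 1.03-fold, whose WT basal arrays all lay under the floor. COL13A1 fell 6.13-fold, from 7.93, 8.16 and 8 to 6.39, 5.35 and 4.51, COL4A2 3.48-fold, from 6.62, 6.57 and 6.56 to 4.80, 4.91 and 4.65, and COL8A1 2.40-fold, from 8.68, 8.92 and 8.88 to 8.04, 7.28 and 7.37, although the second COL8A1 probe set gave 0.22 there. COL1A2 rose 1.96-fold, from 10.86, 11.07 and 11.05 to 11.94, 11.98 and 11.98. In S769F, 2 rose (16.9%) and 6 fell (13.8%). COL13A1 fell 11.5-fold, from 9.02, 9.26 and 8.87 to 6.18, 5.49 and 4.92. COL4A2 went from 7.17, 6.19 and 6.76 to 4.48, 4.64 and 4.72, COL8A1 from 9.64, 9.79 and 9.94 to 7.81, 7.95 and 7.84, and COL21A1 rose from 4.51, 4.56 and 4.14 to 6.29, 5.75 and 5.66.

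In Q780*, 4 genes rose (19.9%) and 8 fell (16%). Among those that fell was COL3A1, with both group means under the floor. COL13A1 fell 18.3-fold, from 9.33, 9.39 and 9.30 to 5.24, 5.13 and 5.07 (log2 difference -4.19 ± 0.38, adjusted p = 2.95e-10). COL4A2 fell 6.12-fold, from 6.79, 6.88 and 6.95 to 4.46, 4.08 and 4.25, and COL8A1 5.43-fold, from 9.29, 9.42 and 9.75 to 7.02, 7.14 and 6.98. COL21A1 rose at least 3.95-fold, from 4.13, 4.29 and 3.99 to 6.97, 5.96 and 5.90. In P336L, 3 rose (12%) and 7 fell (14%). COL13A1 fell 9.09-fold, from 8.76, 8.80 and 8.65 to 5.98, 5.68 and 5.01, COL4A6 2.02-fold, from 7.04, 7.13 and 7.12 to 6.37, 5.96 and 5.92, and COL8A1 1.80-fold, from 9.36, 9.69 and 9.53 to 8.71, 8.73 and 8.60. COL11A1 rose 1.75-fold from 4.56, 4.49 and 4.55.

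In A414T, 5 genes rose (15.8%) and 5 fell (17.3%). Those that rose included COL14A1, at least 1.05-fold, whose A414T basal arrays all lay under the floor. COL13A1 fell 5.58-fold from 8.39, 8.27 and 8.27, and COL4A2 5.03-fold, from 6.98, 6.58 and 6.68 to 4.71, 4.48 and 4.07. COL1A2 rose 2.51-fold, from 11.32, 11.17 and 11.35 to 12.52, 12.64 and 12.65, and COL5A1 2.15-fold, from 8.06, 8.53 and 8.72 to 9.20, 9.88 and 9.53. COL12A1 rose by 0.86 ± 0.14, and its dimmer sets gave 0.29, 0.40 and -0.10 and did not pass. Of the maturation list, 15 of 31 genes rose and 1 fell in A414T, against 9 (background 18.2%) and 1 (12.7%) in EV. In IRE1-DN, 1 gene rose (9.1%) and 5 fell (10.7%). COL13A1 fell 14.6-fold, from 8.65 and 8.35 to 4.70 and 4.56. COL15A1 rose 4.94-fold, from 5.10 and 4.78 to 7.93 and 6.55, arrays that lie far apart (adjusted p = 7.3e-06). COL8A1 fell 4.41-fold from 11.86 and 11.38, and COL4A2 at least 2.93-fold, from 5.84 and 5.79 to 4.17 and 4.14. COL4A6 fell in every line but WT, by 0.49 to 1.26 on the log2 scale, with -0.28 in WT. COL21A1 rose in EV, WT, S769F, Q780* and P336L, by 0.64 to 2.14, and gave 0.30 in both A414T and IRE1-DN.

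**Figure D5:**
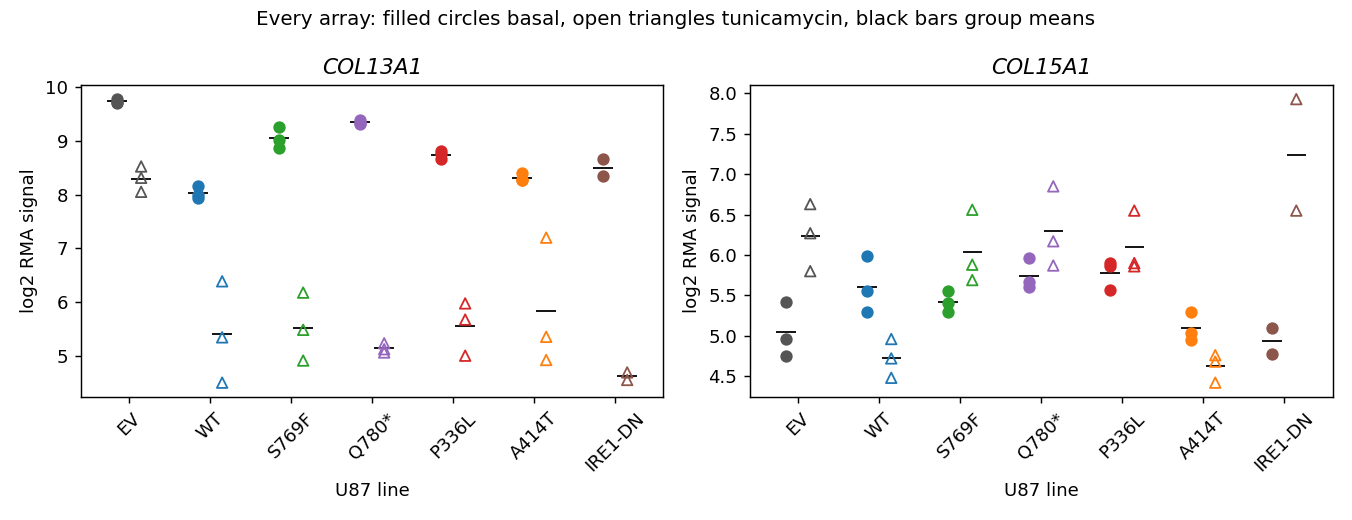
Log2 signal of COL13A1 (left) and COL15A1 (right) on every array of the 7 lines, with filled circles for basal and open triangles for tunicamycin arrays and black bars for the group means. COL13A1 falls in all 7 lines, and the treated arrays of EV (8.05 to 8.52) lie above those of every other line; COL15A1 lies higher after tunicamycin in EV and IRE1-DN and lower in WT.

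Whether the response to tunicamycin itself differed from that of EV was tested as an interaction. In WT 1 collagen gene passed (background 0.5%), in S769F 0 by limma (0.494%; 4 at an unadjusted p under 0.05), in Q780* 1 (0.919%), in P336L 1 (0.814%), in A414T 5 (6.83%) and in IRE1-DN 3 (5.2%). COL15A1 rose in EV and fell in WT, a difference of responses of -2.08 ± 0.40 on the log2 scale (adjusted p = 0.00702). In P336L the fall of COL4A2 was 1.60 ± 0.24 smaller than in EV (adjusted p = 0.000374). COL13A1 fell further in Q780* (-2.76 ± 0.54) and in IRE1-DN (-2.44 ± 0.60), while in the other 4 lines the difference of -1.05 to -2.09 did not pass. A second COL13A1 set passed in both lines (-1.53 and -1.52), and the remaining set did not (-0.12 and 0.13). In A414T, COL5A1 (1.13 ± 0.26), COL8A1 (0.86 ± 0.25), COL1A2 (0.57 ± 0.13) and COL1A1 (0.51 ± 0.12) had higher responses than in EV and COL15A1 (-1.66 ± 0.40) a lower one. The second COL8A1 set gave -0.44 and did not pass, and of the other COL1A1 sets 1.34 and 1.25 passed while 0.93 and -0.04 did not. In IRE1-DN the response of COL1A2 was lower by 0.87 ± 0.15, with other sets at -0.81, which passed, and -1.10, which did not. That of COL27A1 was higher by 1.41 ± 0.35, and its other sets (0.47, 0.96 and 0.30) did not pass. Leaving out S769F tunicamycin replicate 1 gave 1 gene in S769F, and leaving out replicate 1 of either P336L group gave 2 genes in P336L.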

How the data were processed

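U87 cells in 14 groups by line and treatment, taken from the labels, were measured on 40 Affymetrix PM arrays from biotin-labelled cRNA. The authors deposited RMA log2 signals, that is values corrected for background, quantile-normalized and summarised per probe set. The sources used here do not state the RMA version, or whether all arrays were normalized together. RMA compresses differences near the floor. Of 54715 probe sets, 40920 named 1 gene, 864 named several and 12931 none, and the last 2 kinds were not used for genes.

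limma 3.58.1 (R 4.3.3) was fitted to all 40 arrays with 14 group means, since the methods name t-tests and ANOVA in general but no test for the arrays, and 27 contrasts were tested with Benjamini-Hochberg adjustment over 17191 genes. Calculations were tested on simulated data. Array values are given for genes among the 4 largest changes that passed in a comparison with EV or with tunicamycin, and up to 6 genes are named per further list. The COL1A1 probe sets were chosen for display after their values were seen. The members and lists were chosen with earlier results of these data known. Protein sequences were not analysed here.

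Deviations of same-numbered arrays from their group means correlated at -0.39 to 0.63. They exceeded 0.1 for every number in 5 of 21 comparisons, those of WT, S769F and Q780* with EV under basal conditions and of WT and Q780* under tunicamycin, and these were taken as paired. Alternatives covered the filter, normalization, probe set, test, samples, pairing and left-out arrays. The number of arrays limits the precision.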

Additional observations from a re-analysis of the deposited data

Results flagged for a closer look

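The response to tunicamycin differed from that of EV, by the limma interaction test with Benjamini-Hochberg adjustment over all genes, for 11 combinations of gene and line. All of them share the EV arrays. For COL15A1 the difference was -2.08 in WT (adjusted p = 0.00702) and -1.66 in A414T (adjusted p = 0.00819) on the log2 scale. COL13A1 fell further in Q780*, by -2.76 (adjusted p = 0.00539), and in IRE1-DN, by -2.44 (adjusted p = 0.013). COL4A2 in P336L gave 1.60 (adjusted p = 0.000374), its fall being smaller. In A414T the differences were 0.51 for COL1A1 (adjusted p = 0.00496), 0.57 for COL1A2 (adjusted p = 0.00571), 1.13 for COL5A1 (adjusted p = 0.00469) and 0.86 for COL8A1 (adjusted p = 0.033). In IRE1-DN they were -0.87 for COL1A2 (adjusted p = 0.00027) and 1.41 for COL27A1 (adjusted p = 0.0124).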

How the results depend on the processing

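Of 3501 values of single collagen genes under alternative settings, 2884 kept their direction and their side of the threshold, 592 kept the direction but missed the threshold, and 25 turned, each of these 25 with another probe set of the gene. The total is carried by refits of the same probe set. Leaving out 1 array kept 944 values and put 159 short of the threshold. With other probe sets of a gene 124 values were kept, 95 missed the threshold and 25 turned. Of 503 counts, 413 stayed within 1.5 times the reported one. Few arrays per group and signals near the floor, as for COL4A1, COL15A1 and COL21A1, limit what can be called. The causes of the changes below were not tested, apart from those that follow from a setting itself.

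Counting only changes of at least 2-fold left 3 of 7 genes in A414T against EV under basal conditions and 6 of 12 under tunicamycin, 2 of 5 in A414T against WT, 8 of 14 in IRE1-DN and 6 of 10 in P336L against EV under tunicamycin, 0 of 2 and 1 of 2 in Q780*, 1 of 5 and 1 of 4 in S769F and 2 of 6 and 2 of 8 in WT against EV under basal conditions and tunicamycin. On tunicamycin it left 4 of 10 in A414T, 6 of 10 in EV, 2 of 10 in P336L, 4 of 12 in Q780*, 5 of 8 in S769F and 3 of 11 in WT, and 2 of the 5 differences of response in A414T.

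The methods' t-test, with Benjamini-Hochberg adjustment added here, gave, against EV under basal conditions, 3 genes in A414T, 7 in IRE1-DN, 3 in P336L, 0 in Q780*, 0 in S769F and 1 in WT. Under tunicamycin it gave 7, 7, 4, 1, 0 and 1 in the same order. It gave 6 for A414T against IRE1-DN, 2 for A414T against WT, and on tunicamycin 5 in A414T, 5 in EV, 0 in IRE1-DN, 6 in P336L and 4 in WT. Unadjusted it gave 3 in IRE1-DN on tunicamycin, 10 in P336L and 5 in Q780* against EV under basal conditions, and 6 in Q780* and 9 in S769F under tunicamycin.

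Fitting only the arrays compared gave 3 genes for A414T against WT, 0 and 1 in Q780* against EV under basal conditions and tunicamycin, 1 in S769F and 2 in WT under basal conditions, and differences of response of 1 gene in A414T, 2 in P336L and 1 in S769F. With the replicate block on those arrays there were 2 for A414T against WT, 6 in P336L against EV under tunicamycin, 0 in Q780* and 3 in S769F under basal conditions, 5 in A414T, 4 in P336L and 7 in WT on tunicamycin, and 1 difference of response in A414T and 1 in S769F. In comparisons not taken as paired such losses are not read as weaker effects. The replicate block over all arrays left COL4A2 in IRE1-DN against EV under basal conditions at an adjusted p of 0.0594, the only call it lost. It gave 2 differences of response in P336L and 1 in S769F.

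Repeated quantile normalization gave 8 genes for A414T against WT. Centring the arrays gave 1 gene in Q780* under basal conditions and 2 differences of response in P336L, and the stricter filter gave 1 in Q780* under tunicamycin and 2 in P336L. Robust moderation with a trend gave 2 in P336L. The mean of a gene's probe sets gave 1 in Q780* and 3 in S769F under basal conditions, and differences of response of 2 genes in P336L, 2 in Q780* and 3 in WT.

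Leaving out 1 array at a time gave 3 to 8 genes in WT, 3 to 5 in S769F and 1 to 2 in Q780* against EV under basal conditions. Under tunicamycin it gave 3 to 7 in WT and 1 to 3 in Q780*, and 7 to 12 for WT on tunicamycin. The differences of response ranged from 1 to 2 in P336L and from 0 to 1 in S769F. Where a group was left with 1 array, that array was assumed to vary like the others.

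Other probe sets turned the sign as follows. COL11A2 gave 0.15 in EV on tunicamycin and -0.13 in IRE1-DN under tunicamycin. COL12A1 gave 0.12 in A414T and -0.30 in IRE1-DN under basal conditions, and -0.10 in A414T on tunicamycin. COL13A1 gave 0.13 for the response in IRE1-DN. COL1A1 gave -0.18 in A414T, -0.20 in IRE1-DN and -0.29 in P336L under tunicamycin, 0.05 for A414T against IRE1-DN, -0.20 and -0.07 in IRE1-DN under basal conditions, and -0.04 for the response in A414T. COL1A2 gave -0.06 in A414T against EV and -0.33 against WT, -0.26 in Q780* and -0.02 in S769F on tunicamycin. COL27A1 gave 0.14 for A414T against IRE1-DN, -0.39 in IRE1-DN and 0.04 in WT under basal conditions, and 0.02 and 0.08 in P336L on tunicamycin. COL5A1 gave -0.07 in Q780* on tunicamycin. COL8A1 gave -0.44 for the response in A414T and 0.22 in WT on tunicamycin.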
